A study of Mus musculus with 2 samples.

Results

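Voltage-gated sodium and calcium channels, the hyperpolarization-activated HCN channels and the potassium channels set the electrical activity of the heart. The genes of their subunits were taken as every mouse gene whose symbol begins with Scn and a digit, with Cacn, with Hcn and a digit, or with Kcn. Expression values were used for 54 such genes out of 12395 genes in all. The annotation holds 143 genes with such a symbol, of which 89, among them 5 noncoding RNA genes, had no transcript in the table used here and were not analysed. The hearts came from C57BL/6 mice that carried an osmotic minipump for 14 days. One group received a mimic of CHAPIR, a piRNA of the heart (a small RNA that binds PIWI proteins), at 30 mg/kg, and the other received a scrambled negative control mimic (NC), for which no separate dose is stated. The age and sex of the mice, and the number of mice behind each library, are not stated. Each group was 1 library of total RNA, so no difference below has a replicate check, an error or a test, and the values compare 2 libraries rather than 2 treatments.

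A cardiac action potential starts when sodium channels open and depolarise the membrane. Calcium then enters through L-type channels and triggers contraction, and potassium channels of several families return the membrane to rest. In the mouse the early repolarization is carried mainly by transient outward currents and by rapidly activating, slowly inactivating Kv currents, while inward rectifiers hold the resting potential. HCN channels carry the pacemaker current of the sinoatrial node. The channels are built of pore-forming subunits, many of which open in response to voltage, ligands or stretch. Many channels also hold auxiliary subunits, which alter gating and the transport to the membrane.

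Levels are given as FPKM (fragments per kilobase, scaled to the size of the library), summed over the listed transcripts of a gene. A difference is given as the log2 ratio of (CHAPIR + 1) to (NC + 1), so that changes at low levels appear smaller than they are. A gene was called when this ratio passed 1.5-fold, which is 0.58 on the log2 scale, at a mean of at least 1 FPKM over both libraries. The libraries also stood apart in ways other than the mimic, and this holds for every comparison below. The Y-linked genes Ddx3y, Eif2s3y, Uty and Kdm5d summed to 51.6 FPKM with CHAPIR and were all listed at 0 with NC, so that mimic and apparent sex cannot be told apart. All 6 cardiomyocyte markers were present at like levels, summing to 13467 FPKM with CHAPIR and 14069 FPKM with NC. All 6 macrophage markers had positive log2 ratios, and their sum was 260.4 against 153 FPKM. The 5 fat cell markers summed to 3.05 against 28.4 FPKM, with Ucp1 and Retn listed at 0 with CHAPIR. In whole hearts, fewer cells of a type and less RNA per cell cannot be told apart. The part of these differences in the channel values was not tested.

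As a group, the channel subunit genes had similar levels in both libraries. Of the 54 genes, 42 had a mean of at least 1 FPKM. Of these, 2 genes, Kcnd3 among them, were called higher with CHAPIR, which is 4.76%, where 6.39% of all 11104 genes at that level were called higher. Scn4b was called lower, which is 2.38% of the genes, where 3.59% of all genes were called lower. Both shares lay near the background and say nothing particular about channels. With 1 added to each value, none of the 42 genes passed 2-fold, where 2.37% of all genes were 2-fold higher and 1.16% were 2-fold lower. The median log2 ratio of the 42 genes was -0.04 and that of all genes 0.00. Of the 42 genes, 35 (83.3%) lay within 1.2-fold, as did 69.01% of all genes. The counts at 2-fold and at 1.2-fold both depend on the 1 added to each value. With 0.1 added instead, Kcnd3 had a log2 ratio of 1.005, which is past 2-fold. The 12 genes below the filter were Kcna1, Kcna2, Kcna4, Kcnab1, Kcnab2, Kcnj15, Kcnk2, Kcnmb1, Scn10a, Cacna2d3, Cacnb4 and Cacng6. Among them Kcna2, at 0.69 against 0.02 FPKM, had the largest ratio. Without the filter 3 of the 54 genes were 1.5-fold higher, where 6.82% of all listed genes were, and 1 was lower, where 4.12% were. None of the 15 genes whose mean reached 10 FPKM was called, where 4.2% of all such genes were higher and 2.32% lower. Among the 27 genes from 1 to 10 FPKM, 2 were higher and 1 lower, where 7.67% and 4.34% of all genes were. On either side of the filter stood Kcna7, with a mean of 1.33 FPKM, and Kcnab1, with a mean of 0.85 FPKM.

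**Figure D1:**
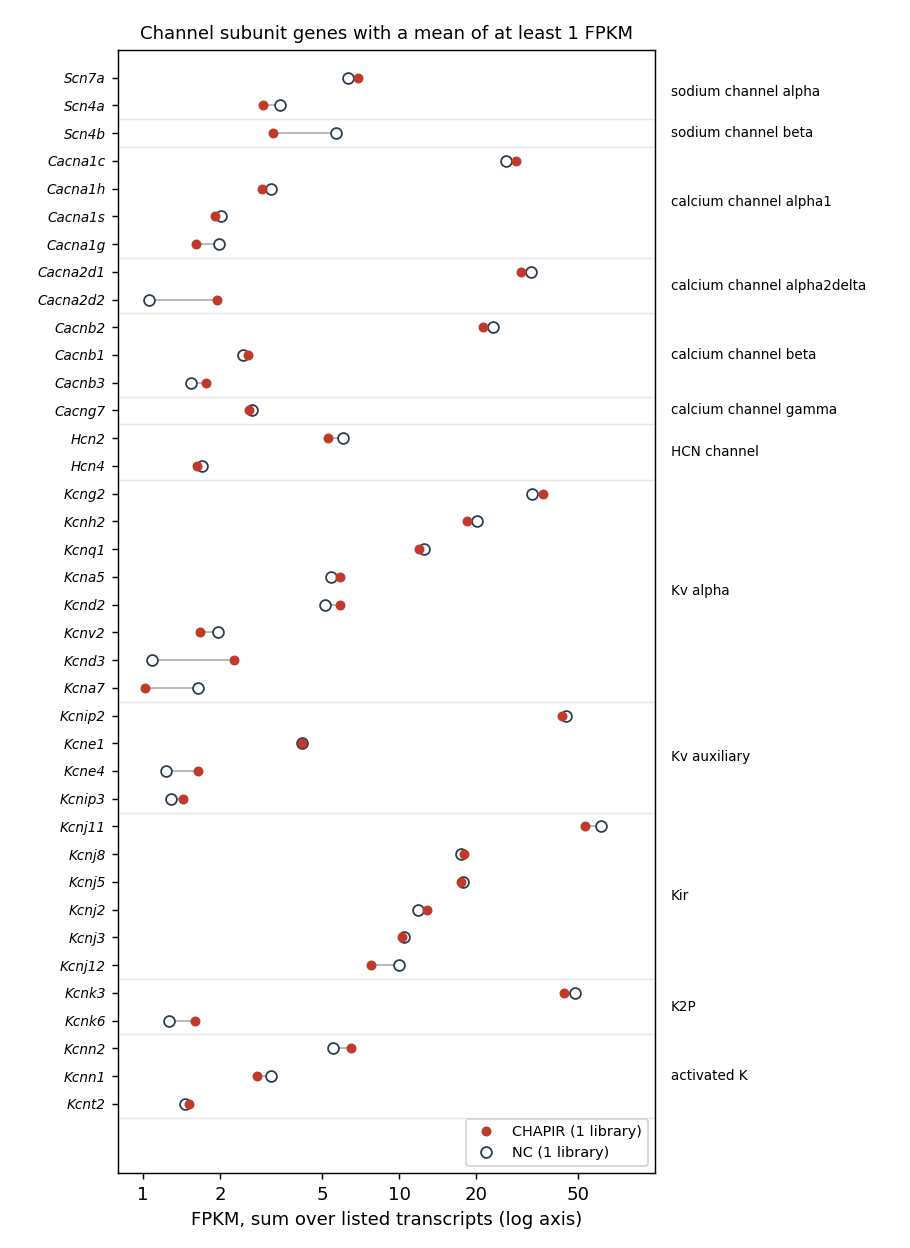
FPKM of 38 channel subunit genes above the filter, on a log axis, by class of subunit. Filled points are the CHAPIR library and open points the NC library, 1 library each, and the points of most genes lie close together, with the widest gaps at Kcnd3, Cacna2d2 and Scn4b.

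**Figure D2:**
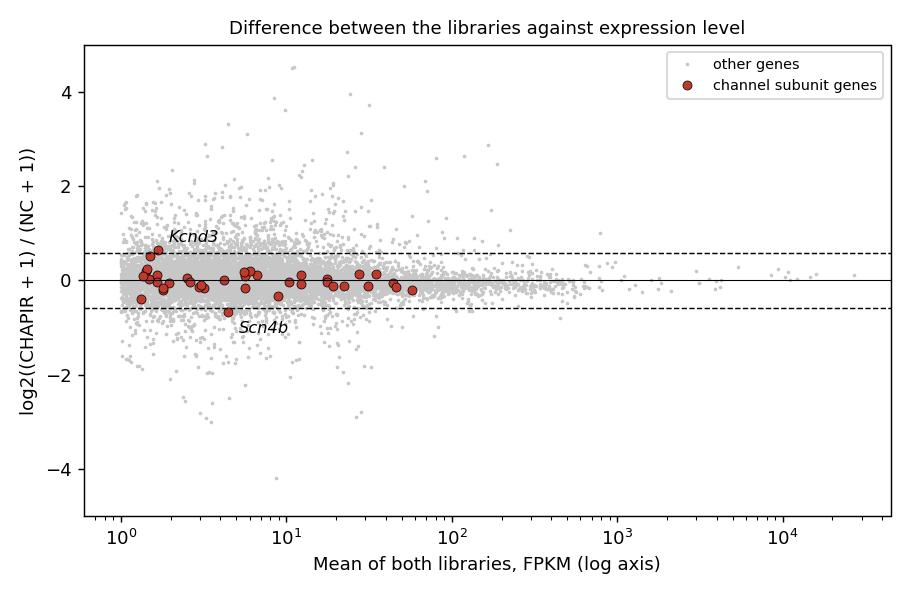
Log2 ratio of CHAPIR to NC, with 1 added to each value, against the mean FPKM of both libraries (log axis) for 11100 genes that passed the filter. Filled points are 38 channel subunit genes, and the dashed lines mark 1.5-fold, which Kcnd3 passes upwards and Scn4b downwards.

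The order of the most abundant subunits was nearly the same in both libraries, with 9 of the 10 highest genes shared. Kcnj11, the pore subunit Kir6.2 of the ATP-sensitive potassium channel, was the highest in both, at 53.1 FPKM with CHAPIR and 61.6 FPKM with NC. This sum included a listed transcript of 917 bases at 22.6 against 24.7 FPKM, while that of 3142 bases was at 28.5 against 36.0 FPKM. On the transcript of 3142 bases alone, Kcnj11 would stand below Kcnk3 in both libraries, so its rank depends on the sum. Kcnk3, the two-pore domain channel TASK-1, followed at 44.1 against 48.4 FPKM, and Kcnip2, which encodes KChIP2, at 43.2 against 44.9 FPKM. Also among them were the silent Kv subunit gene Kcng2, Cacna2d1, Cacna1c and Cacnb2 of the L-type calcium channel, and Kcnh2. The place of the tenth was taken by Kcnj8 with CHAPIR and by Kcnj5 with NC, which differed by less than 1 FPKM in each.

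Of the 5 sodium channel genes above the filter, 4 had a log2 ratio below 0, as did 5464 of all 11104 genes. With so few genes the count says nothing particular about sodium channels. Scn4b, the beta4 subunit that links to the pore covalently and alters its gating, was at 3.21 FPKM with CHAPIR and 5.67 FPKM with NC (log2 ratio -0.66). It is the 1 channel gene called lower, and 7.8% of the 500 genes nearest to it in mean level had a ratio at least as large in either direction. Scn4b lies on chromosome 9 from 45138395 to 45154152 (GRCm38), overlaps no exon of another annotated gene, and has 1 annotated transcript, so its value does not depend on how reads were divided between transcripts. Scn4a, the skeletal muscle sodium channel, was at 2.94 against 3.41 FPKM (log2 ratio -0.16), and Scn7a, a sodium-sensing relative of these channels, at 6.91 against 6.33 FPKM (log2 ratio 0.11). Of 7 skeletal muscle markers 2 were listed, the creatine kinase gene Ckm, which heart muscle also expresses, at 401.9 against 480.3 FPKM and the fast troponin gene Tnni2, called lower, at 0.66 against 1.67 FPKM. Their part in the value of Scn4a was not tested.

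The L-type calcium channel was represented by its cardiac subunits at like levels in both libraries. Cacna1c, the pore subunit Cav1.2, was at 28.7 FPKM with CHAPIR and 26.2 FPKM with NC (log2 ratio 0.13). Its partners Cacna2d1, an extracellular alpha2delta subunit, and Cacnb2, a cytoplasmic beta subunit, were at 29.9 against 32.6 FPKM and at 21.3 against 23.3 FPKM, with a log2 ratio of -0.12 for each. Per unit of Cacna1c, there were 1.04 units of Cacna2d1 with CHAPIR and 1.25 with NC, and 0.74 and 0.89 units of Cacnb2. Cacna2d2, the other alpha2delta gene above the filter, was at 1.95 against 1.05 FPKM, with its log2 ratio of 0.52 just short of the threshold. The T-type pore genes Cacna1h and Cacna1g, which serve pacemaking tissue and the developing heart, were at 2.91 against 3.17 FPKM and 1.61 against 1.98 FPKM. Cacna1s, the pore subunit of skeletal muscle, was at 1.90 against 2.01 FPKM. Cacnb1, Cacnb3 and Cacng7 had log2 ratios of 0.05, 0.11 and -0.03.

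Cacna1c was spread over 16 listed transcripts, which allowed the use of its alternative exons to be compared. Like other genes of its family it holds exons that replace each other in the mature transcript. The pair shown here has 104 bases in each exon, and each of the 16 transcripts holds exactly 1 of the pair. The upstream exon lies on chromosome 6 from 118742265 to 118742368 and the downstream exon from 118741871 to 118741974 (GRCm38, minus strand). Both are read from the GENCODE M21 transcripts in the direction of transcription, with the bases that differ, 32 of the 104, in capitals.
Cacna1c upstream exon: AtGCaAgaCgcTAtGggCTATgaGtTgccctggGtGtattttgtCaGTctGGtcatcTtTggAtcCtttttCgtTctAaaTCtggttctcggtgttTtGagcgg
Cacna1c downstream exon: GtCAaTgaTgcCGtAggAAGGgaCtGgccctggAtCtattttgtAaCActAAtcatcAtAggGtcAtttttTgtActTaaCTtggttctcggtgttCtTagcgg
Transcripts with the upstream exon summed to 23.8 FPKM with CHAPIR and 22.3 FPKM with NC. Those with the downstream exon summed to 4.94 against 3.87 FPKM. The upstream exon was therefore in 82.8% of Cacna1c with CHAPIR and 85.2% with NC. Of 2 further pairs, which a few transcripts hold together, the wider gap was at the downstream exon of 84 bases on chromosome 6 from 118637730 to 118637813. It was in 25.7% of Cacna1c with CHAPIR and 17.3% with NC, and its upstream partner in 81.0% and 82.7%. Of the transcripts with this downstream exon, Cacna1c-208, Cacna1c-219, Cacna1c-220 and Cacna1c-225 were each listed at 0 with NC. With CHAPIR they were at 0.62 to 0.66 FPKM each. The part of these zeros in the gap was not tested. The downstream exon of the pair of 60 bases was in 80.5% and 77.4%. The start of the protein was divided more evenly. Transcripts with the upstream first coding exon, as in Cacna1c-207, made up 47.7% of the gene with CHAPIR and 52.5% with NC, and those with the downstream one, as in Cacna1c-202, 47.8% and 45.8%. The pair of most abundant forms, Cacna1c-207 at 10.3 FPKM in both libraries and Cacna1c-202 at 8.02 against 7.44 FPKM, differed little. Among minor forms, Cacna1c-214 was listed at 0 with CHAPIR and at 1.45 FPKM with NC.

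Cacnb2 begins with different first coding exons, which give the beta2 subunit different amino ends. The form of 611 residues was at 15.3 against 15.4 FPKM and made up 71.8% of the gene with CHAPIR and 65.8% with NC. The form of 655 residues was at 3.87 against 5.03 FPKM and that of 605 residues at 2.07 against 2.31 FPKM.

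The HCN genes differed little at the level of the gene. Hcn2 was at 5.28 FPKM with CHAPIR and 6.05 FPKM with NC (log2 ratio -0.17). Hcn4, the main pacemaker channel of the sinoatrial node, was at 1.62 against 1.70 FPKM (log2 ratio -0.04). Of the conduction system markers, Tbx3 was at 3.90 against 2.15 FPKM, Tbx5 at 18.95 against 15.5 FPKM, Cntn2 at 1.73 against 0.13 FPKM and Shox2 at 0.65 against 0.33 FPKM. Of these markers Tbx3 was called higher, Tbx5 was not called, and Cntn2 and Shox2 lay below the filter.

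Among the Kv pore subunits, 2 of 10 genes above the filter were called, both higher with CHAPIR, where 6.39% of all genes were called higher and 3.59% lower. With so few genes the count says nothing particular about Kv pores. Kcnd3 encodes Kv4.3, 1 of the pore subunits of the fast transient outward current. It was at 2.27 FPKM with CHAPIR and 1.08 FPKM with NC, and the log2 ratio was 0.65, which 11.6% of the 500 genes nearest in mean level reached in either direction. Its partner Kcnd2, which encodes Kv4.2, was at 5.895 against 5.13 FPKM (log2 ratio 0.17), so Kcnd2 exceeded Kcnd3 by 2.59 times with CHAPIR and by 4.74 times with NC. The listed transcripts of Kcnd3 differ by an exon of 57 bases, the length of 19 codons, on chromosome 3 from 105666962 to 105667018 (GRCm38, plus strand). It is shown in capitals between 30 bases of the flanking coding exons, since the libraries differed in which of the forms was higher.
Kcnd3 with the exon: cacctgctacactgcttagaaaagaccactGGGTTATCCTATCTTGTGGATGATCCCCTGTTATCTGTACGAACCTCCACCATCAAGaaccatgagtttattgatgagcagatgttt
Kcnd3 without the exon: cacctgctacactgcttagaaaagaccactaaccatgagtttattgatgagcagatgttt
The form with the exon, of 655 residues, was listed at 0 with CHAPIR and at 0.93 FPKM with NC. The form without it, of 636 residues, was at 2.27 against 0.15 FPKM. These levels are low, an exact 0 can be a failed estimate, and the form without the exon is also the longer transcript, with 7169 bases against 2102 bases. With transcripts weighted by length the log2 ratio of Kcnd3 was 2.09. An annotated antisense gene, Kcnd3os, overlaps an exon of Kcnd3, and the sources used here do not state whether the authors' quantification used strand.

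Other Kv pore genes were closer. Kcna5, which encodes Kv1.5, was at 5.89 FPKM with CHAPIR and 5.44 FPKM with NC. Kcnh2, the ERG channel of rapid delayed rectification, was at 18.3 against 20.1 FPKM, and Kcnq1, the pore of the slow delayed rectifier, at 11.9 against 12.5 FPKM. Kcng2, a silent subunit that forms channels only with other Kv pores, was at 36.5 against 33.1 FPKM. Its value included a listed transcript of 279 bases at 12.7 against 6.64 FPKM, while that of 2813 bases was at 21.5 against 24.5 FPKM. Kcna4, the pore of the slow transient outward current, lay below the filter at 0.80 against 0.65 FPKM. Log2 ratios of Kcnv2 and Kcna7 were -0.15 and -0.38. Kcnh2 also had a form with a later start, of 820 residues, whose own first coding exon holds 108 coding bases, and it made up 20.01% of the gene with CHAPIR and 21.4% with NC.

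Auxiliary subunits of Kv channels were at close levels in both libraries, and none of the 4 genes above the filter was among the 6.39% of all genes called higher or the 3.59% called lower. A count over so few genes says nothing particular about these subunits. Kcnip2, the calcium-binding KChIP2 without which mouse ventricle has little fast transient outward current, was at 43.2 FPKM with CHAPIR and 44.9 FPKM with NC (log2 ratio -0.05). Kcne1, the single-span partner of Kcnq1, was at 4.19 against 4.16 FPKM, and Kcnq1 over Kcne1 was 2.84 and 3.01. Kcne4 and Kcnip3 were at 1.63 against 1.23 FPKM and 1.43 against 1.29 FPKM. Kcnip2 per unit of Kcnd2 was 7.33 with CHAPIR and 8.75 with NC.

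Within Kcnip2, the order of the leading pair of transcripts differed between the libraries. They differ in the coding sequence by 1 exon of 54 bases, the length of 18 codons, on chromosome 19 from 45796279 to 45796332 (GRCm38, minus strand), shown in capitals between 30 bases of its neighbours.
Kcnip2 with the exon: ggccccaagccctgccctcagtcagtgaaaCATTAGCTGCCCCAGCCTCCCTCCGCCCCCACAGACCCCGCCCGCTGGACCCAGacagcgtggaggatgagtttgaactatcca
Kcnip2 without the exon: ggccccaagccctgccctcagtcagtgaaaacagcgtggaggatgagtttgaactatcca
The form with the exon, of 270 residues, was at 19.4 FPKM with CHAPIR and 15.1 FPKM with NC. The form without it, of 252 residues, was at 17.6 against 22.4 FPKM. Over all 6 listed transcripts the exon was in 44.8% of Kcnip2 with CHAPIR and 33.7% with NC. These forms together made up 85.6% of the gene with CHAPIR and 83.5% with NC, and 4 shorter forms the rest. No replicate measures how far such shares vary between hearts of 1 group.

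**Figure D3:**
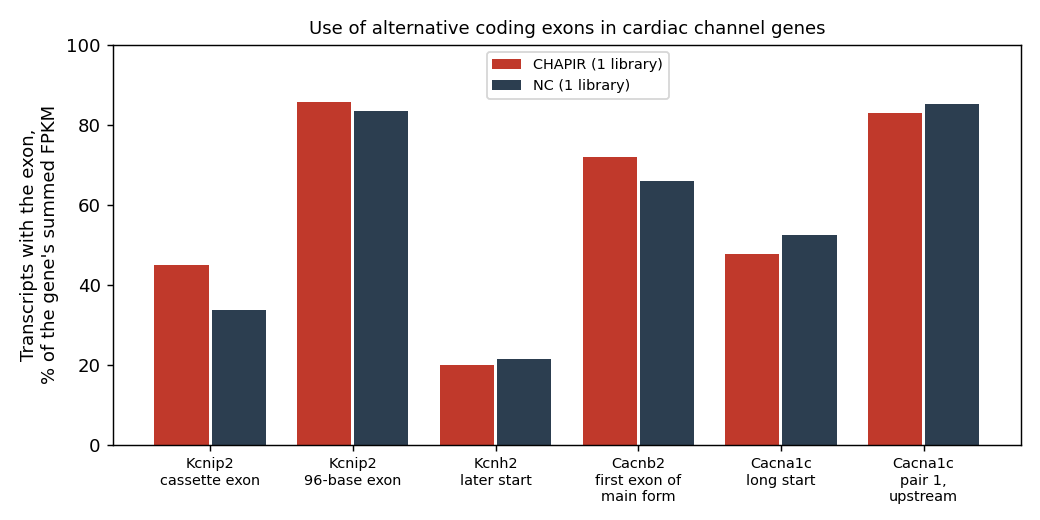
Share of a gene's summed FPKM that came from transcripts with a given coding exon, in percent, in the libraries of CHAPIR and NC (1 each). Kcnd3 is left out for its low level, and the widest gap among the 6 features drawn is that of the Kcnip2 cassette exon, 44.8% against 33.7%.

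Inward rectifiers, the channels that hold the resting potential, had 0 of 6 genes called among those above the filter, where 6.39% of all genes were called higher and 3.59% lower. So small a count says nothing particular about inward rectifiers. Kcnj2 and Kcnj12, which encode the Kir2.1 and Kir2.2 pores of the background inward rectifier, were at 12.8 FPKM with CHAPIR against 11.8 FPKM with NC, and at 7.75 against 9.95 FPKM. Kcnj12 had the lowest log2 ratio of the class, -0.32, and Kcnj2 over Kcnj12 was 1.65 and 1.19. Kcnj3 and Kcnj5 form the acetylcholine-activated channel of the atria and the nodes. They were at 10.2 against 10.5 FPKM and at 17.4 against 17.8 FPKM, and Kcnj5 over Kcnj3 was 1.70 in both libraries. Of the 5 genes listed as atrial markers, Myl7, Myl4, Sln and Nppa had log2 ratios of -0.36, -0.26, -0.13 and 0.02. Myh7, also on that list though not specific to the atria, had a log2 ratio of 0.52. None of the 5 was called. Kcnj11 had a log2 ratio of -0.21. Kcnj8, the Kir6.1 pore of vascular ATP-sensitive channels, was at 17.9 against 17.5 FPKM. Their sulfonylurea receptor partners Abcc9 and Abcc8 were at 44.5 against 47.9 FPKM and 8.74 against 8.79 FPKM. Pericyte markers, Abcc9 among them, summed to 223.6 against 214.4 FPKM. The 4 smooth muscle markers all had negative log2 ratios, from -0.46 for Acta2 to -0.67 for Tagln, where Kcnj8 had 0.03.

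Two-pore domain and calcium- or sodium-activated potassium channels were also alike in the sums per gene. Kcnk3 had a log2 ratio of -0.13, and Kcnk6 was at 1.59 FPKM with CHAPIR and 1.26 FPKM with NC. Kcnn2 and Kcnn1, small-conductance calcium-activated channels, were at 6.48 against 5.51 FPKM and 2.78 against 3.17 FPKM. Kcnt2, a sodium-activated channel, was at 1.51 against 1.46 FPKM. Kcnmb1, the beta1 subunit of the large-conductance channel of smooth muscle, lay below the filter at 0.70 against 0.65 FPKM.

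Single transcripts were called more often than the sums per gene. The 54 genes had 108 listed transcripts, and 24 genes had more than 1. Of the 93 transcripts whose mean reached 0.5 FPKM, 6 were called higher with CHAPIR (6.45%), where 14.7% of all 20679 such transcripts were. Another 11 were called lower (11.8%), where 12.5% of all were. Among these 93 transcripts, Cacna1s and Cacnb3 each had some called in opposite directions. Cacna1s-204 was at 1.90 FPKM with CHAPIR and 0.30 FPKM with NC, and Cacna1s-201 was listed at 0 and at 1.72 FPKM. The form of Cacnb3 with 483 residues was at 0.64 against 1.54 FPKM, and the form with 457 residues was at 1.12 FPKM with CHAPIR and listed at 0 with NC. Hcn2 also had a transcript of 3089 bases listed at 0 against 2.78 FPKM, beside one of 3195 bases at 5.28 against 3.27 FPKM, although both encode the same 863 residues. In these genes the sums differed far less than the transcripts, and each pair shares most of its sequence. How the authors' tool divided reads between such transcripts is not stated in the sources used here, and its part in these differences was not tested.

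**Figure D4:**
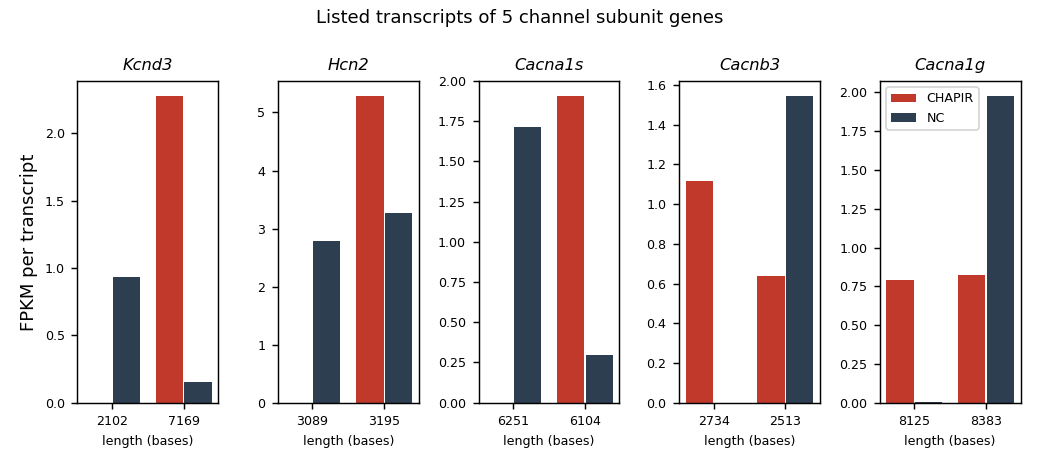
FPKM of each listed transcript, named by its length in bases, of Kcnd3, Hcn2, Cacna1s, Cacnb3 and Cacna1g in the libraries of CHAPIR and NC (1 each), with a separate linear axis from 0 for each gene. In each gene at least 1 transcript is at or near 0 in one of the libraries.

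Other genes of cardiac excitability were taken as a list of 55 symbols for anchoring proteins, channel regulators, pumps, exchangers, gap junction proteins and transcription factors. The list also held ion channels outside the member symbols, such as Trpm4, Clcn3, Piezo1 and Ryr2. Of the 55 symbols, 49 passed the filter on the mean. Of the 49, 1 was called higher and 3 were called lower, where 6.39% and 3.59% of all genes were, and their median log2 ratio was -0.09. Irx5, a transcription factor that represses Kcnd2 in the inner wall of the mouse ventricle, was called higher at 5.03 FPKM with CHAPIR and 2.67 FPKM with NC. Nedd4l, a ubiquitin ligase that acts on channels of the membrane, was called lower at 2.97 against 7.999 FPKM, as was its relative Nedd4 at 59.9 against 101.9 FPKM. Popdc2, a cyclic AMP-binding membrane protein known to affect pacemaking and to bind the TREK-1 channel, was called lower at 98.8 against 154.5 FPKM. Fgf13 and Fgf12, which bind the tail of sodium channels, were at 39.8 against 39.2 FPKM and 5.85 against 5.59 FPKM. Ank2 and Ank3, the ankyrins that anchor channels and exchangers, were at 33.1 against 35.4 FPKM and 11.9 against 8.24 FPKM. Rrad, a small GTPase that restrains L-type channels, was at 87.5 against 114.6 FPKM. The connexin genes Gja1 and Gja5 were at 30.1 against 33.6 FPKM and 6.25 against 8.89 FPKM, and the sodium-calcium exchanger gene Slc8a1 at 62.7 against 67.9 FPKM.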

How the data were processed

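Total RNA of mouse heart was sequenced in 2 libraries, 1 per group, from fragmented RNA with random primers and dUTP in the second strand, as stated per the labels' protocols. The authors deposited 1 value per Ensembl transcript and library. The unit is not named and the values were treated as FPKM computed by the authors, as the products of value and length in kb came to 739668 for CHAPIR and 732588 for NC over the whole table, while the values themselves came to 401938 and 394675. Another scaling per library would shift all ratios, before the pseudocount, by 1 constant. Cutadapt, HISAT2 2.0.5, StringTie, STAR 2.5.2b and the build GRCm38 are named without roles, per the submitters' processing notes. The table held 23178 transcripts, none under 0.5 in both libraries. No counts were used, so the depth is unknown and counting intervals cannot be given.

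Identifiers without version were matched to GENCODE M21 (GRCm38, coordinates 1-based) for 23128 transcripts, and 50 were left out. Values were summed per gene with pandas 2.3.3. Log2 ratios used a pseudocount of 1, and genes with a mean of at least 1 were counted at 1.5-fold over all genes. There is no test with 1 library per group. Sequences were read from the GENCODE M21 transcripts. Named were called genes, the 10 with the highest mean, textbook cardiac channel genes, genes with opposing transcripts and those at the filter. Some members that count in every total are not reported here. Other members and other genes were named after their values were seen. The members and lists were chosen with earlier results of these data known. The counting was tested on simulated data, with means of at least 5 FPKM and changes well past 1.5-fold. Calls at lower levels or near the threshold were not covered by it.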

Additional observations from a re-analysis of the deposited data

How the results depend on the processing

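No paired analysis was possible because there was 1 library of each kind, and no library could be left out. Of the channel genes, 2 were called higher and 1 lower, where 6.39% and 3.59% of all genes were. With a pseudocount of 0.1 the counts were 3 and 2, where 8.82% of all genes were higher and 5.45% lower. With a pseudocount of 5 the counts were 0 and 0, where 2.44% and 1.23% were, and with the filter raised to 5 FPKM they were 1 and 0, where 5.11% and 2.56% were. Reading only the most abundant transcript gave 2 higher (Cacna1s, Kcnd3) and 4 lower (Cacna1g, Cacnb3, Kcnn1, Scn4b), where 9.88% and 6.90% of all genes were. Weighted by length, 2 were higher (Cacna2d2, Kcnd3) and 1 lower (Scn4b), where 7.60% and 4.49% were. The median log2 ratio of the channel genes stayed between -0.09 and -0.02 over all 12 settings. Scaling alternatives (centring, the same sum of values, rescaling and quantile normalization) left both counts as they were. The settings weighted by length and restricted to transcripts of at least 1 kb were chosen after seeing the data. Settings that change only the filter cannot shift the log2 ratio of a gene. Reading only the most abundant transcript cannot shift a gene with 1 listed transcript. Such values are part of the 306 below, whose number therefore does not measure stability. Of the values of named genes over these settings, 306 shifted by under 1 SD of the genes nearest in level, and 6 by more. Of these, the most abundant transcript turned the sign of Cacna1s (1.16), Cacnb3 (-0.64) and Hcn2 (0.56), for which no call was made on the sum. With the depth unknown, the precision of low values has no estimate.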
